A study of Mus musculus with 16 samples.

Results

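The mRNAs described here encode 10 proteins that neutrophils store in their granules, out of 21878 mRNAs in the count and FPKM tables. They were selected by gene symbol and fall into 3 classes. The primary granule class holds Elane, Prtn3, Ctsg and Mpo, the secondary class holds Ltf, Ngp, Camp and Lcn2, and the tertiary class holds Mmp8 and Mmp9. All 10 symbols were found, and all 10 reached the minimum total of 16 counts used for testing. The list was assembled with the difference between the groups already known, so the values of that difference are given as a description, and no p-value of a member is printed for it.

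RNA-seq was performed on cells sorted as microglia (CD11b+/CD45int) from the brains of wild-type female C57BL/6 mice, 8 weeks old, with 1 library per mouse. The 8 EAE mice were immunized with MOG residues 35 to 55 in complete Freund's adjuvant and given pertussis toxin, and their brains were taken 14 days later, at the peak of disease. The 8 control mice received PBS under the same schedule. Because antigen, adjuvant and pertussis toxin were given to the same mice, the effects of each cannot be told apart in this comparison. In the treatment field of the labels the last MOG residue increases by 1 per mouse, up to 62 in EAE 8, whereas the protocol gives 55 for all EAE mice.

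Neutrophils make their granules in sequence while they mature in the bone marrow. Primary (azurophil) granules form first, at the promyelocyte stage, and carry myeloperoxidase and the serine proteases neutrophil elastase, proteinase 3 and cathepsin G. Secondary (specific) granules follow with lactoferrin, cathelicidin and lipocalin 2, and tertiary (gelatinase) granules with matrix metalloproteinases form last. Transcription of each class largely ends when the next begins, so that the blood neutrophil holds the proteins of its early granules but little of their mRNA. In EAE, neutrophils enter the central nervous system early in disease, and they carry CD11b, as microglia do, with more CD45 on their surface.

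Total counts per library were 24587443 to 30244215 in the EAE group and 26031889 to 34184576 in the PBS group. A count of 0 in a library allows up to 3 counts, or a CPM (count scaled to a common library total) of 0.0992 to 0.122 in the EAE group and 0.0878 to 0.115 in the PBS group, counting error only. The 10 microglia markers, C1qa among them, had a mean of 11.7 to 21.8 FPKM per gene over the 16 libraries. This was below the lists for neurons (111 to 146 FPKM per gene), astrocytes (107 to 170) and oligodendrocytes (146 to 206) in each library, so the label of sorted microglia is not borne out by the most abundant markers. The difference between 2 libraries, as a multiple of counting noise, was 3.14 to 3.57 among EAE 6, EAE 7 and EAE 8 and 3.30 to 3.94 among PBS 5, PBS 7 and PBS 8, against 5.85 to 22.6 for the other pairs within a group. The labels name no batch, and results are given below with and without these 6 libraries. PBS 4 had the lowest PBS level of 6 of the 10 members.

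Several members lie close together on the GRCm38 build (GENCODE M21 annotation). Camp (chromosome 9, 109847379 to 109849617, minus strand), Ngp (chromosome 9, 110419747 to 110423012, plus strand) and Ltf (chromosome 9, 111019271 to 111042767, plus strand) lie within 1195389 bases of each other, with other genes between them. Mmp8 is on the same chromosome, from 7558456 to 7568485. Prtn3 (chromosome 10, 79874476 to 79883174) and Elane (chromosome 10, 79886247 to 79888215) are direct neighbours on the plus strand, 3073 bases apart. Ctsg lies on chromosome 14 from 56099881 to 56102574, next to Gzme and Mcpt8, which encode related serine proteases. Mpo is on chromosome 11 from 87793581 to 87804413. Lcn2 is on chromosome 2 from 32384633 to 32388252, and Mmp9 is on chromosome 2 from 164940780 to 164955850. Plppr3, a gene of neurons on the opposite strand, covers 159 of the 1732 exonic bases of Prtn3, and the antisense gene Gm11505 covers 512 of the 3424 of Mpo. The libraries were made with a stranded total RNA kit, and the strand setting of the counting is not given in the sources used here.

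The bases before the transcription starts of 5 members are shown because they hold the letters bound by C/EBP factors and PU.1, the main transcription factors of granule genes, and because they cover the 3 members called higher in EAE mice and the Prtn3-Elane pair. RefSeq (GRCm38.p6) gave an upstream sequence for 9 members, all but Mmp9. The sequences run 5′ to 3′ on the strand of the gene, from 250 bases before the RefSeq start up to the first annotated exon base, and capitals mark TTGCNNAA (C/EBP) and GAGGAA (PU.1) on either strand.
Ngp (GRCm38.p6, plus strand, chr9:110419558-110419746): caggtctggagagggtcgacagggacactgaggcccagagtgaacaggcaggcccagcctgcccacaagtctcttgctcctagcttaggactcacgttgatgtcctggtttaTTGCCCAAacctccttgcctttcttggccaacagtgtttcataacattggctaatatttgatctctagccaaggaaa
Ltf (GRCm38.p6, plus strand, chr9:111019042-111019270): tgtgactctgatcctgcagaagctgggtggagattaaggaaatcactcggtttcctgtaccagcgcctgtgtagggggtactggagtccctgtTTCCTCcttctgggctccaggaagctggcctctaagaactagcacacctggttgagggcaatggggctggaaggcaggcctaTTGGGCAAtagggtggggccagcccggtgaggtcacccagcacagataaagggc
Ctsg (GRCm38.p6, minus strand, chr14:56102575-56102824): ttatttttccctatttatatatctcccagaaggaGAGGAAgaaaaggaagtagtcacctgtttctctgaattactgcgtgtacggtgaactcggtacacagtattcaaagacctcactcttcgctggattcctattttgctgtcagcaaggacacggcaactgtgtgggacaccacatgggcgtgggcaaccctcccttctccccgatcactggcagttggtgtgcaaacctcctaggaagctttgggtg
Elane (GRCm38.p6, plus strand, chr10:79886062-79886246): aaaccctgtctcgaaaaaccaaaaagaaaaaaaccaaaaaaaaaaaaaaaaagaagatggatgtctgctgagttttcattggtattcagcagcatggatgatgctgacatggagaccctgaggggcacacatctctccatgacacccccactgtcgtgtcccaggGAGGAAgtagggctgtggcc
Prtn3 (GRCm38.p6, plus strand, chr10:79879417-79879613): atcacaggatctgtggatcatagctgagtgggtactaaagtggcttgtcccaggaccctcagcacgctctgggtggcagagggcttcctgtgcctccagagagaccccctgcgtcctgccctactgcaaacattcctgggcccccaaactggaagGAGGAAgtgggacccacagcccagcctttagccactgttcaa

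In the full 250 bases, TTGCNNAA was found upstream of 4 of the 9 members, namely Ngp, Ltf, Lcn2 and Mmp8, against 9.56% of 32851 RefSeq upstream sequences of the same length. None of the 4 primary granule members was among them. GAGGAA was found upstream of 7 members (Elane, Prtn3, Ctsg, Mpo, Ltf, Lcn2 and Mmp8), against 23.3% of all, and these included every primary granule member. Camp held neither motif in this window. Upstream here means before the RefSeq start, and GENCODE exons of the same gene cover part of some windows. They cover 197 of the 250 bases for Lcn2, 203 for Mpo and 161 for Camp. The windows of Lcn2 and Prtn3 lie wholly within the annotated gene. A further TTGCNNAA match of Ngp, 11 to 4 bases before the RefSeq start, lies past the printed stretch. A match describes the letters only, and no binding was measured.

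In the EAE-PBS comparison, 3 of the 10 members were called higher in EAE mice and 0 were called lower. A call needed a |log2FC| over 1 together with an adjusted p below 0.05 (Benjamini-Hochberg) in edgeR's quasi-likelihood test. These were Ctsg of the primary class and Ltf and Ngp of the secondary class. Ctsg reached the minimum of 16 counts only through the EAE libraries, so its call is not independent of that filter. Over all 17885 tested mRNAs, 0.117% were called, 0.0951% as higher and 0.0224% as lower. The share called higher was 0.142% with DESeq2, where Ltf and Ngp were called, and 0.246% with edgeR's exact test and 0.0839% with a block for the replicate number, where the same 3 members were called. The fitted log2FC was above 0 for 9 members and above 1 for 5, where 52.7% and 2.08% of all tested mRNAs were. Its median over the 10 members was 1.08, and 0.01 over all tested mRNAs. With Elane and Ctsg, which have very few counts, set at the lower end of their counting interval, the median of the 10 was 0.69. Ltf was the only member with every EAE library above every PBS library, as were 0.162% of all tested mRNAs. Since the members were chosen on this contrast, nothing further is read from these counts. In bulk samples, fewer cells of a type and less RNA per cell cannot be told apart.

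**Figure D1:**
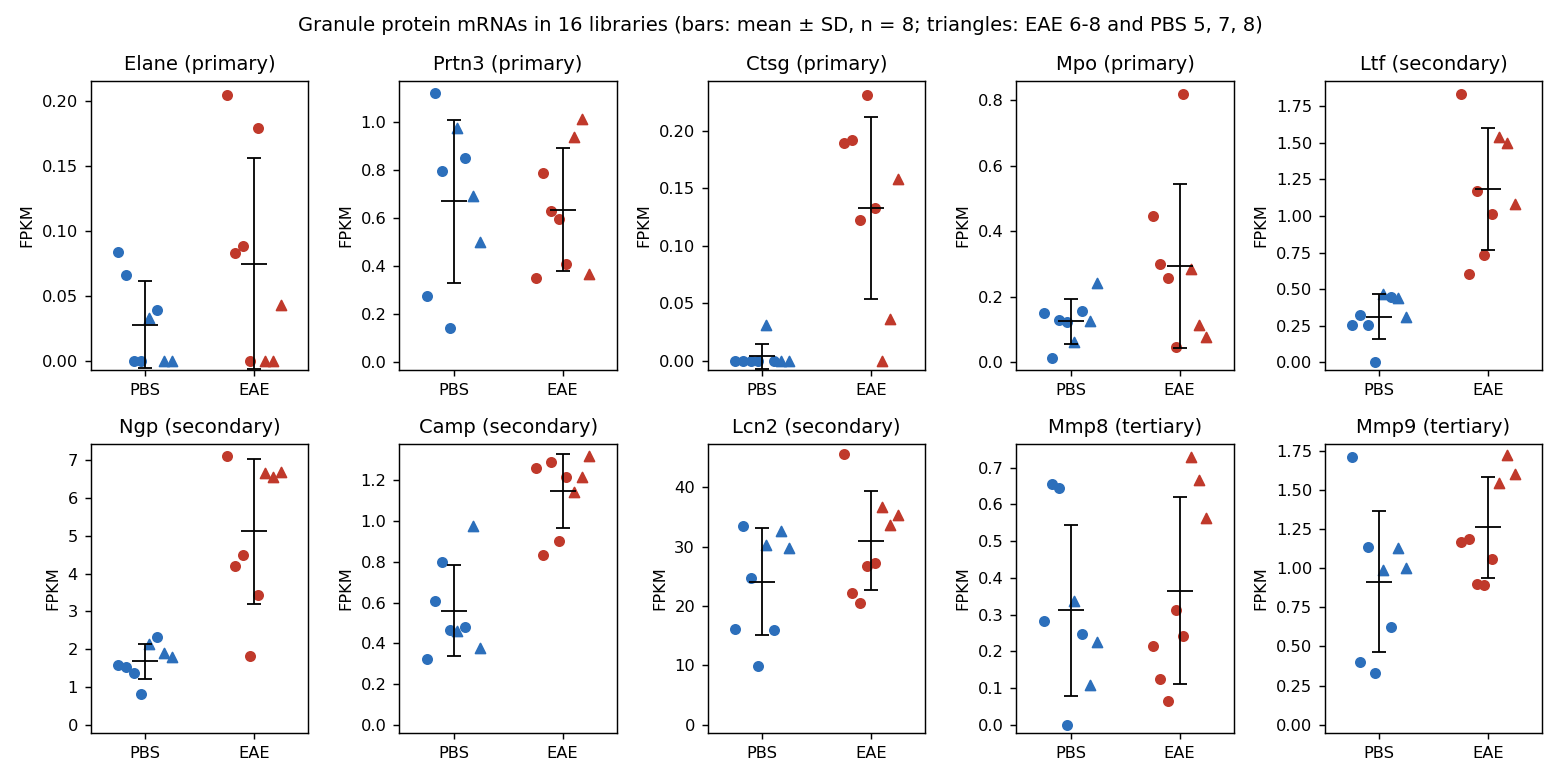
FPKM (linear axes) of the 10 granule mRNAs in the 8 PBS and 8 EAE libraries, 1 point per library, with mean and SD; triangles are EAE 6, 7, 8 and PBS 5, 7, 8. The groups are apart for Ltf, nearly apart for Ngp, Camp and Ctsg, and overlap for Prtn3, Lcn2, Mmp8 and Mmp9.

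Among the secondary granule genes, the levels of Ltf, Ngp and Camp separated the groups most, and that of Lcn2 least. Ltf encodes lactoferrin, an iron-binding antimicrobial protein. Its FPKM was 0.601 at the lowest, 1.13 at the median and 1.83 at the highest in EAE libraries, and 0, 0.314 and 0.469 in PBS libraries. The highest EAE value was that of EAE 1 and the lowest that of EAE 2, while PBS 4 had 0 counts. The mean of the EAE libraries was 1.18 ± 0.419 FPKM (SD, n = 8) and that of the PBS libraries 0.311 ± 0.152. The fitted log2FC was 1.87 (SE 0.35). Leaving out any of the 16 libraries kept Ltf called, with a log2FC of 1.68 (without PBS 4) to 1.98 (without PBS 5).

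Ngp encodes neutrophilic granule protein, a member of the cystatin and cathelicidin family. Its FPKM ranged from 1.82 over a median of 5.52 to 7.12 in EAE libraries and from 0.809 over 1.69 to 2.32 in PBS libraries. In 7 of 8 EAE libraries it was above every PBS library, and the exception was EAE 4, which lay among the PBS libraries. PBS 4 again had the lowest level of its group. The mean was 5.12 ± 1.92 FPKM (SD, n = 8) against 1.68 ± 0.472, with a log2FC of 1.56 (SE 0.24), and 1.69 without EAE 4.

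Camp encodes the only mouse cathelicidin, the precursor of an antimicrobial peptide. Its FPKM was 0.831 to 1.32 in EAE libraries, with a median of 1.21, and 0.321 to 0.977 in PBS libraries, with a median of 0.472. In 6 EAE libraries the level was above every PBS library, and 7 of the 8 PBS libraries were below the lowest EAE library, the exception being PBS 7. The log2FC of Camp was 0.96 (SE 0.29), from 13 to 22 counts in EAE and 5 to 20 counts in PBS libraries. It was not called, except without EAE 4, where the log2FC was 1.01. The spread of Camp among EAE libraries (coefficient of variation 15.9%) was below the 23.4% that counting noise alone gives at its mean count.

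Lcn2 encodes lipocalin 2, which binds bacterial siderophores and is also made outside neutrophils, for example by reactive astrocytes. It was by far the most abundant member, at 20.6 to 45.6 FPKM in EAE libraries (median 30.5) and 9.87 to 33.4 in PBS libraries (median 27.3). The groups overlapped: 4 EAE libraries were above every PBS library, and 3 PBS libraries (PBS 1, PBS 4 and PBS 6) were below every EAE library. The log2FC was 0.31 (SE 0.21), and it was not called in any of the 30 settings. Counting noise at its depth is 3.77% in EAE and 3.97% in PBS libraries, whereas the coefficient of variation was 26.9% and 37.1%, so that the libraries of a group differed in Lcn2 well beyond counting error.

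Of the 4 primary granule genes, Ctsg was called higher, Mpo and Elane had a fitted log2FC above 1 without being called, and Prtn3 was at about the same level in both groups. Ctsg encodes cathepsin G. It had 1 count over all 8 PBS libraries, in PBS 5, and 28 counts over the EAE libraries, with 0 to 6 per library and a median of 4. EAE 6 alone among EAE libraries had 0. Scaled to library totals, the ratio of the summed counts was 31.7 (95% exact interval 5.24 to 1296, counting error only), and the fitted log2FC of 3.96 (SE 0.85) rests on these few counts. Leaving out any of the 16 libraries kept Ctsg called, but each of these fits kept the filter that Ctsg passed through its EAE counts. With edgeR's own filter on low counts Ctsg was removed before testing. DESeq2 gave it no adjusted p.

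Mpo encodes myeloperoxidase, which makes hypochlorous acid. Its FPKM ran from 0.0454 (EAE 4) over a median of 0.270 to 0.818 (EAE 5) in EAE libraries, and from 0.0119 (PBS 2) over 0.128 to 0.242 (PBS 8) in PBS libraries. In 5 EAE libraries it was above every PBS library, and the other 3, EAE 4, EAE 7 and EAE 8, lay within the PBS range. The log2FC was 1.19 (SE 0.51), and 0.75 without EAE 5, the library with 63 of the 164 EAE counts. The coefficient of variation among EAE libraries was 85.7%, against 22.1% from counting.

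Elane encodes neutrophil elastase, the protease that gives the primary class its best known activity. It had 15 counts over the EAE libraries, 0 to 5 per library, and 6 over the PBS libraries, 0 to 2 per library. There were 3 EAE and 4 PBS libraries with 0 counts. The ratio of the summed counts was 2.83 (95% exact interval 1.04 to 8.90, counting error only), and the fitted log2FC was 1.29 (SE 0.88). Elane was thus barely detectable at this depth in either group.

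Prtn3 encodes proteinase 3 and is the neighbour of Elane in the genome. Its FPKM was 0.350, 0.611 and 1.01 (lowest, median, highest) in EAE libraries and 0.143, 0.743 and 1.12 in PBS libraries. No EAE library was above every PBS library, and 5 PBS libraries were above the EAE median. The log2FC was −0.13 (SE 0.36), with a sign that turned to 0.02 without PBS 2. Prtn3 had 160 counts over the PBS libraries against 6 of Elane and 1 of Ctsg. Plppr3, on the opposite strand of part of Prtn3, had 17.7 ± 1.44 FPKM (SD, n = 8) in EAE and 19.0 ± 1.25 in PBS libraries, and its part in the level of Prtn3 was not tested.

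Neither tertiary granule gene was called. Mmp9 encodes gelatinase B, a protease that degrades type IV collagen of basement membranes. Its FPKM was 0.895, 1.17 and 1.72 (lowest, median, highest) in EAE libraries and 0.328, 0.996 and 1.71 in PBS libraries. The EAE libraries lay within a narrower range, and only EAE 7 was above the highest PBS library, PBS 1. The log2FC was 0.42 (SE 0.26).

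Mmp8 encodes neutrophil collagenase, which is also assigned to secondary granules. Its FPKM was 0.0663, 0.278 and 0.729 (lowest, median, highest) in EAE libraries and 0, 0.265 and 0.654 in PBS libraries. The 3 highest EAE values were those of EAE 6, EAE 7 and EAE 8, the libraries most alike, and PBS 4 had 0 counts. The log2FC was 0.18 (SE 0.53), and it fell below 0 without EAE 6 (−0.04), without EAE 7 or without PBS 4 (both −0.01).

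**Figure D2:**
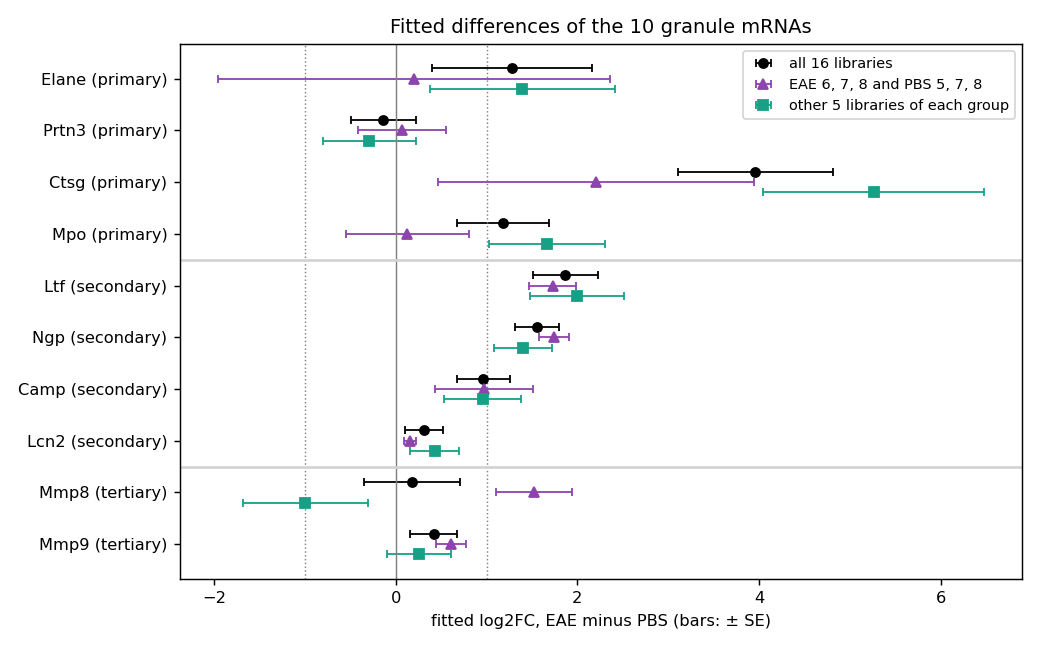
Fitted log2FC (EAE minus PBS, edgeR) with its SE for each granule mRNA, over all 16 libraries, over EAE 6, 7, 8 with PBS 5, 7, 8, and over the other 5 libraries of each group; dotted lines mark a |log2FC| of 1. Ltf, Ngp and Camp have like values in both sets of libraries, whereas Mmp8 is at 1.52 in the first set and −0.99 in the second.

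The members were also compared within the 3 libraries most alike of each group (6 in all) and within the other 10. Likeness was measured within a group only, so whether the EAE and PBS libraries of a set share a batch was not tested. The 6 were picked for small differences within a group, and that choice favours small SEs and calls. The log2FC of Ltf was 1.73 (SE 0.26) and 2.00 (SE 0.51), that of Ngp 1.74 (SE 0.16) and 1.40 (SE 0.32), and that of Camp 0.97 (SE 0.54) and 0.96 (SE 0.43), respectively. For these 3 secondary granule genes the direction was that of all 16 libraries in both sets. Mpo differed more, at 0.13 (SE 0.67) and 1.66 (SE 0.64). Ctsg was at 2.21 (SE 1.74) and 5.26 (SE 1.22), and was called in neither set. Mmp8 was at 1.52 (SE 0.41) in the 6 libraries and −0.99 (SE 0.68) in the other 10. Its mean was 0.653 FPKM in EAE 6, 7 and 8 and 0.193 in the other EAE libraries, with no overlap. In the PBS group the order was the opposite, at 0.223 FPKM in PBS 5, 7 and 8 and 0.366 in the other 5, with overlap. In the 6 libraries Ltf, Ngp and Mmp8 were called, where 0.598% of all mRNAs were called higher. In the other 10 libraries 0 members and 0.0280% of all mRNAs were called higher. With a term for the set in the model, where 0.190% of all mRNAs were called higher, the same 3 members as without it were called, and the log2FC of Mmp8 was −0.01.

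Summed over a whole class, the FPKM of the groups overlapped for all 3 classes. The summed FPKM of Ltf, Ngp and Camp was 3.45 to 10.2 in EAE libraries (median 8.02) and 1.27 to 3.30 in PBS libraries (median 2.47), without overlap. This sum was formed after the values were seen, by leaving out the secondary member with the most overlap, and that choice favours separation. The sum of all members without Lcn2 did not overlap either, at 5.53 to 12.8 FPKM for EAE and 1.87 to 5.49 for PBS libraries. EAE 4 had the lowest EAE value of both sums. The highest was that of EAE 1 for Ltf, Ngp and Camp, and that of EAE 6 for all members without Lcn2. With Lcn2 added both sums overlapped. The whole secondary class came to 27.5 to 55.8 FPKM for EAE and 11.1 to 35.9 for PBS libraries. All 10 members came to 29.6 to 58.4 and 11.7 to 38.2 FPKM. Lcn2 made up 69.5% to 82.9% of the FPKM of the 10 members for EAE and 75.6% to 87.6% for PBS libraries. The summed primary class had a median of 1.18 FPKM in EAE and 0.871 in PBS libraries, and the groups overlapped. The summed tertiary class overlapped too, with 0.964 to 2.39 FPKM for EAE and 0.328 to 1.99 for PBS libraries. Within a library, where scaling does not matter, the FPKM of Ngp divided by that of Lcn2 was 0.0681 to 0.218 in EAE libraries (median 0.185) and 0.0460 to 0.145 in PBS libraries (median 0.0652), and 6 EAE libraries were above every PBS library.

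The order of the levels was compared per length, in FPKM, within each group. The test itself does not use the EAE-PBS difference, but the members were chosen with that difference known. The pairs were set by the mean levels in the same libraries that were tested. In EAE libraries the order was Lcn2, Ngp, Mmp9, Ltf, Camp, Prtn3, Mmp8, Mpo, Ctsg and Elane, from 31.0 to 0.0749 FPKM on average. In PBS libraries it was Lcn2, Ngp, Mmp9, Prtn3, Camp, Mmp8, Ltf, Mpo, Elane and Ctsg, from 24.1 to 0.00383 FPKM. Neighbours in these orders were compared in 18 exact sign-flip permutation tests (two-sided, paired within libraries), of which the smallest p possible with 8 libraries is 0.00781. After Benjamini-Hochberg adjustment over the 18 pairs, 4 neighbours differed. Lcn2 was above Ngp in 8 of 8 EAE libraries by 25.9 ± 7.05 FPKM (SD, n = 8) and in 8 of 8 PBS libraries by 22.5 ± 8.79 (exact permutation adjusted p = 0.0352 for each). In EAE libraries Ngp was above Mmp9 by 3.86 ± 1.69 FPKM and Camp above Prtn3 by 0.511 ± 0.362 FPKM, each in 8 of 8 libraries (exact permutation adjusted p = 0.0352 for each). In PBS libraries Ngp was above Mmp9 in 7 of 8 libraries, by 0.764 ± 0.573 FPKM (exact permutation adjusted p = 0.0563). There the mean of Prtn3 was above that of Camp, with Prtn3 higher in 4 of 8 libraries (exact permutation adjusted p = 0.482). Mmp9, Ltf and Camp, at 1.26, 1.18 and 1.15 FPKM in EAE libraries, did not differ beyond their spread. Below Prtn3, the neighbours in EAE libraries (Mmp8, Mpo, Ctsg and Elane) had adjusted p-values of 0.0625 to 0.686 in the exact permutation test.

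**Figure D3:**
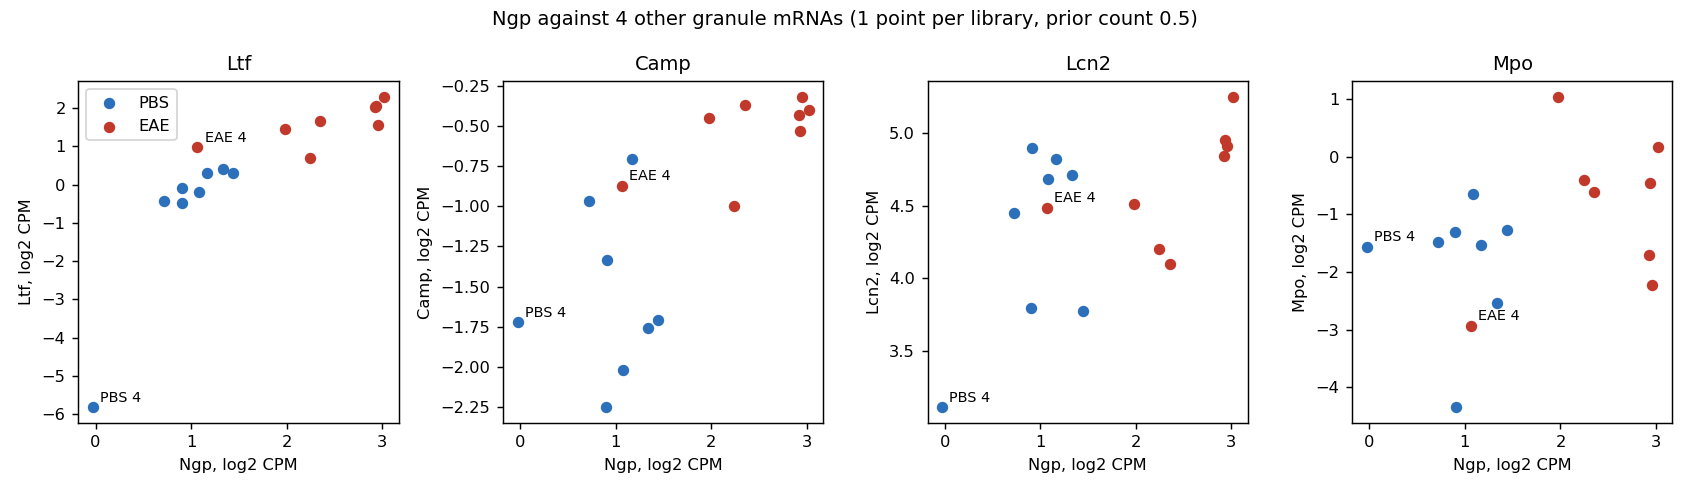
log2 CPM (TMM scaled) of Ngp against that of Ltf, Camp, Lcn2 and Mpo, 1 point per library, coloured by group, with EAE 4 and PBS 4 marked. Ltf follows Ngp within the PBS group (r = 0.92) and PBS 4, with 0 counts of Ltf, lies at the lower left, whereas Mpo does not follow Ngp within the PBS group (r = −0.01).

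Whether the members varied together from mouse to mouse was asked within each group, against Ngp, the called member with the most counts. Of 14 relations with enough counts (a mean of at least 5 in the group), 1 passed after Benjamini-Hochberg adjustment. This was Ltf in PBS libraries, with r = 0.92 (exact permutation p = 0.000893, adjusted p = 0.0125, n = 8) and rho = 0.93 (exact permutation p = 0.00223, adjusted p = 0.0313). Without PBS 4 and PBS 6, the libraries farthest from the median of Ngp, r was 0.88 over the remaining 6. With both genes centred within the sets of most alike and other libraries, r was 0.91, and each set alone holds too few libraries for a value. In EAE libraries the r of Ltf was 0.73 (exact permutation p = 0.0346, adjusted p = 0.144, n = 8), with rho = 0.79 (exact permutation p = 0.0279, adjusted p = 0.172), and 0.80 without EAE 4 and EAE 5.

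For the other members, r with Ngp in EAE libraries was 0.75 for Mmp9, 0.63 for Camp, 0.61 for Lcn2, 0.33 for Mmp8, 0.25 for Mpo and 0.03 for Prtn3. The adjusted p of these in the exact permutation test (n = 8) ranged from 0.144 to 0.976. Without EAE 4 and EAE 5, r became 0.96 for Lcn2, 0.80 for Mmp8, 0.68 for Mmp9, 0.63 for Camp, −0.26 for Mpo and −0.27 for Prtn3. Centring within the sets of libraries kept all 8 EAE libraries, and the r of Ltf was then 0.65. For the others r was 0.64 for Mpo, 0.60 for Mmp9, 0.53 for Camp, 0.44 for Lcn2, −0.26 for Prtn3 and −0.42 for Mmp8. The r of Lcn2 thus depended on the libraries used, and 0.96 holds only without EAE 4 and EAE 5. In PBS libraries r was 0.74 for Prtn3 and 0.67 for Mmp8, which came to 0.17 and −0.59 without PBS 4 and PBS 6, and both therefore rest on those libraries. The remaining values in PBS libraries were 0.58 for Lcn2, 0.46 for Mmp9, 0.01 for Camp and −0.01 for Mpo, and without PBS 4 and PBS 6 these became 0.41, 0.01, −0.12 and 0.00184. The centred PBS values were 0.74 for Mmp8, 0.73 for Prtn3, 0.43 for Lcn2, 0.35 for Mmp9, −0.04 for Camp and −0.12 for Mpo. With 8 libraries per group, a relation of this size is not distinguished from no relation.

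The mRNAs with the highest r with Ngp over all libraries were not granule genes. Over the 16 libraries, with each group centred on its mean, the highest r among 15920 mRNAs with a mean of at least 10 counts was that of Brsk2 (0.93), followed by Ccdc142 (0.93), Map2k7 (0.92), Zfp956 (0.92) and Myo15 (0.92). Brsk2 is a kinase of neuronal polarity and Map2k7 a kinase of the JNK pathway, and the log2FC of these 5 mRNAs between the groups was 0.05, 0.34, 0.15, 0.18 and 0.44. In all, 202 mRNAs (1.27%) had an r over 0.8. S100a9 ranked 121, Ltf 1129, Lcn2 2266 and Mpo 6273 among the 15920. These correlations share libraries and scaling with Ngp and are a description. Counting noise lowers the r of mRNAs with few counts, such as Mpo (3 to 63 in EAE and 1 to 19 in PBS libraries). Brsk2 had a mean of 42.2 FPKM in EAE and 39.4 in PBS libraries. The ranks therefore do not show that granule genes follow Ngp less closely.

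The other neutrophil genes were taken from lists made for this comparison. Of 12 genes of mature neutrophils, 2 were called higher in EAE mice, S100a8 and S100a9, the subunits of calprotectin. Over all tested mRNAs, 0.0951% were called higher. This list was also chosen with earlier results of these data known, so its calls and adjusted p-values are a description. S100a9 had 6.47, 17.1 and 22.0 FPKM (lowest, median, highest) in EAE libraries and 2.59, 6.04 and 8.23 in PBS libraries, with a log2FC of 1.33 (SE 0.26, adjusted p = 0.00935 in edgeR's quasi-likelihood test). S100a8 had 6.65, 22.6 and 30.2 FPKM in EAE libraries and 3.73, 8.43 and 10.3 in PBS libraries, with a log2FC of 1.33 (SE 0.28, adjusted p = 0.0169 in the same test). All 12 had a fitted log2FC above 0, where 52.7% of all tested mRNAs did, and the median of the 12 was 0.39. Ly6g, the surface antigen that defines mouse neutrophils, was looked up after the values were seen and had 0 to 9 counts in EAE and 0 to 4 in PBS libraries. The summed FPKM of the list was 26.5 to 61.9 in EAE and 13.8 to 29.4 in PBS libraries, lowest in EAE 4 and in PBS 4. Without S100a8 and S100a9, the other 10 genes summed to 8.04 to 15.4 FPKM (median 10.8) and 6.55 to 12.1 (median 8.85).

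Of 10 further granule genes, 0 were called, 8 had a fitted log2FC above 0, and 1 had an unadjusted p under 0.05, as did 17.4% of all 17885 tested mRNAs. Their median log2FC was 0.10. Lyz2, lysozyme of all myeloid cells, had 11.6 ± 2.69 FPKM (SD, n = 8) in EAE and 10.2 ± 2.44 in PBS libraries, and Pglyrp1, a peptidoglycan-binding protein of secondary granules, had 10.5 ± 2.58 and 10.3 ± 3.59. The gene with an unadjusted p under 0.05, named after its values were seen, was Cd177, a surface and granule glycoprotein of neutrophils, with a log2FC of 1.17 (SE 0.36, adjusted p = 0.0903 in the edgeR test). It was called with DESeq2 and with edgeR's exact test.

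Of 8 transcription factors of granule genes, 7 were tested and 0 called, and 3 had an unadjusted p under 0.05. These 3, named after their values were seen, were Cebpe, Spi1 and Runx1. Their log2FC was 2.56 (SE 1.17), 0.26 (SE 0.12) and 0.30 (SE 0.13), with an adjusted p of 0.232 to 0.261 in edgeR's quasi-likelihood test. Cebpb and Cebpd, C/EBP factors that many cell types induce in inflammation, had a median of 10.3 and 6.91 FPKM in EAE libraries and of 10.3 and 7.95 in PBS libraries. Cebpe, on which secondary granule genes depend, was looked up after the values were seen and had 0 to 8 counts in EAE and 0 to 2 in PBS libraries. These and the following counts at an unadjusted p stand against 17.4% of all tested mRNAs. Of 7 genes of neutrophil progenitors, led by Cd34 and Kit, 0 were called and 3 had an unadjusted p under 0.05. Their median log2FC of 0.91 was that of Ms4a3, which like Prss34, Fcnb and Cebpe had at most 10 counts in any library. The log2FC of Cd34 was −0.01 and that of Kit −0.17. The summed FPKM, carried by the abundant members, was 25.8 to 37.6 in EAE and 26.4 to 34.5 in PBS libraries.

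The most abundant inhibitors and receptors of the granule proteins had higher mean FPKM than each member. Of 8 inhibitors, 7 were tested and 0 called, and 3 had an unadjusted p under 0.05. These were Slpi and Timp1, both named after their values were seen, and Timp2. Their log2FC was 1.34 (SE 0.55), 0.54 (SE 0.21) and −0.22 (SE 0.06). Timp2, an inhibitor of metalloproteinases, had 62.6 ± 7.18 FPKM (SD, n = 8) in EAE and 70.6 ± 3.09 in PBS libraries. Serpina3n, a serpin that inhibits cathepsin G, had 43.1 ± 6.68 and 31.5 ± 13.9. Of 6 receptors, 0 were called and 3 had an unadjusted p under 0.05. Slc22a17, a receptor of lipocalin 2, had 157.7 to 202.7 FPKM in EAE and 192 to 210.1 in PBS libraries, with a log2FC of −0.24 (SE 0.05, adjusted p = 0.00820 in edgeR's quasi-likelihood test), under the fold change threshold. Lrp1, a receptor of lactoferrin, had 128.0 ± 4.11 and 135.0 ± 3.71 FPKM.

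**Figure D4:**
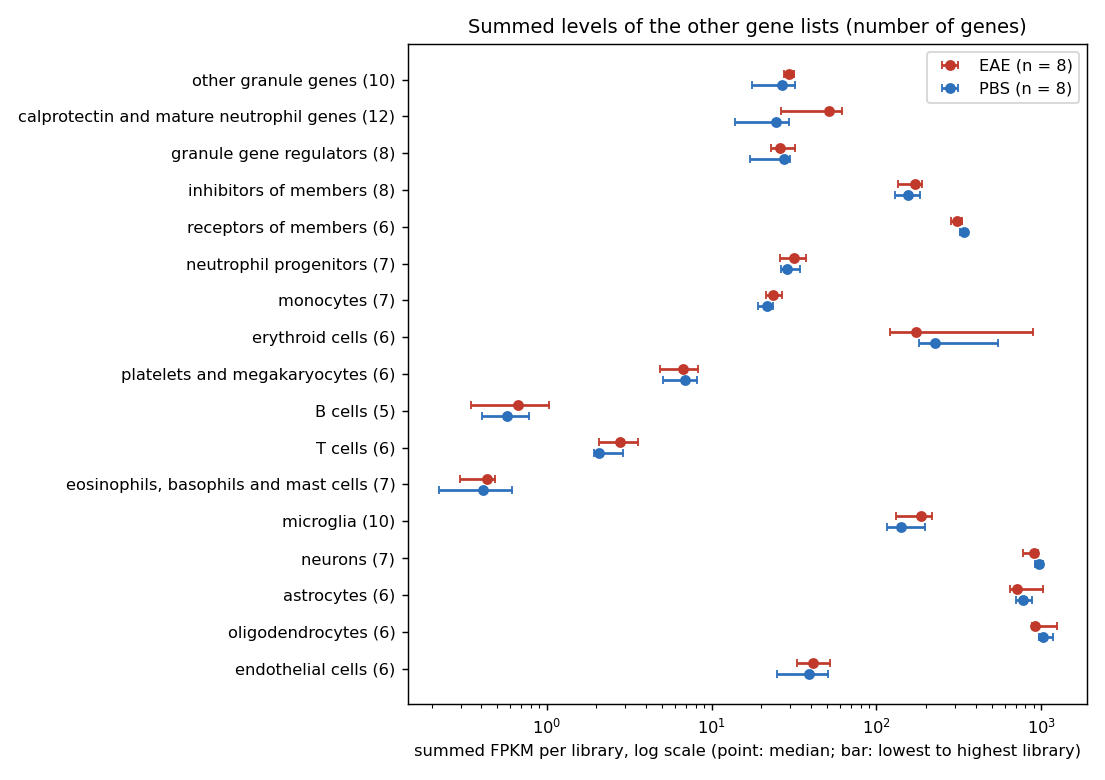
Summed FPKM per library (log axis) of the 17 other gene lists, as median with lowest and highest library, in 8 EAE and 8 PBS libraries. The ranges of the groups overlap for all 17 lists, and on the log axis the medians lie furthest apart for the mature neutrophil genes, at 51.7 and 24.5 FPKM, a gap mostly of S100a8 and S100a9.

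Markers of other cell types were set beside these values. The summed FPKM of 6 erythroid genes, led by Hbb-bs and Hba-a1, was 120 to 885 in EAE and 180 to 544 in PBS libraries, and 0 were called in edgeR's quasi-likelihood test. That of 7 monocyte genes, led by Fn1 and Vcan, was 21.4 to 26.7 and 19.1 to 23.4, and that of 6 platelet genes, led by Gp1bb and Itga2b, was 4.88 to 8.30 and 5.08 to 8.14, with 0 called in each. Fn1 (mean 15.6 FPKM in EAE libraries) and Vcan (5.29) carried the monocyte sum, which therefore says little of Ccr2 (0.427) and Ly6c2 (0.473). The median log2FC of the 7 monocyte genes was 0.44. B cell genes (5, led by Cd79a and Pax5) came to 0.345 to 1.03 and 0.407 to 0.775 FPKM, and T cell genes (6, led by Cd4 and Lck) to 2.07 to 3.55 and 1.92 to 2.89. The median log2FC of the 6 T cell genes was 0.66. Their sum was carried by Cd4 (log2FC 0.03) and Lck (0.38). It says little of Cd3e (1.52), Cd3g (1.00), Cd8a (0.95) and Cd3d (−0.29), looked up after the values were seen and at most at 26 counts in any library. The 7 genes of eosinophils, basophils and mast cells, led by Siglecf and Epx, came to 0.298 to 0.484 and 0.221 to 0.617 FPKM. Endothelial genes (6, led by Cldn5 and Flt1) came to 33.1 to 52.1 and 24.9 to 50.9. Again 0 genes of these 4 lists were called, nor was any of the microglia, neuron, astrocyte and oligodendrocyte lists. Under the fold change threshold, 4 markers had an adjusted p below 0.05 in that test. Gfap, the filament protein of reactive astrocytes, had 144 ± 16.9 FPKM (SD, n = 8) in EAE and 98.1 ± 25.5 in PBS libraries (log2FC 0.50, edgeR adjusted p = 0.0312), and Trem2, a receptor of microglia, had 9.13 ± 2.25 and 5.97 ± 0.854 (log2FC 0.56, edgeR adjusted p = 0.0282). Gfap was the only 1 of the 6 astrocyte markers with a fitted log2FC above 0, and the median of the 6 was −0.17. The neuronal genes Gad1 and Syt1 were lower, with a log2FC of −0.53 and −0.28 (edgeR adjusted p = 0.00309 and 0.0326). Against 17.4% of all mRNAs, at an unadjusted p under 0.05 there were 4 genes each of neurons and astrocytes, 2 each of microglia, oligodendrocytes and T cells, 1 of platelets and 0 of the other lists of this paragraph. With DESeq2 the calls over the 17 lists were 3, namely S100a8, S100a9 and Cd177. The summed microglia list was 130 to 218 FPKM in EAE and 117 to 198 in PBS libraries. PBS 4 had the lowest PBS sum in 8 of the 17 lists and the highest in 2, among them the microglia list. EAE 4 had the lowest EAE sum in 5 and the highest in 6, again with the microglia list among the latter. The part of these lists in the levels of the granule mRNAs was not tested. Without PBS 4 and EAE 4, Ltf had a log2FC of 1.76, Ngp of 1.58 and Ctsg of 3.72, and these 3 members were again the ones called.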

How the data were processed

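RNA-seq libraries from 8 EAE and 8 PBS-treated mice were analysed, grouped by the sample labels. The authors aligned reads to GRCm38 with HISAT2 2.1.0 and counted them with HTSeq 0.11.2 (versions from the submitters' processing notes); they deposited raw counts and FPKM values for 21878 mRNAs. Over the 7749 mRNAs above 500 counts throughout, the ratio of count to library total and FPKM was constant across libraries (largest relative spread 3.60e-10), so FPKM carries no scaling other than total and length. Both tables gave 16 columns, and each was used.

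Counts were tested here with edgeR 4.0.16 in R 4.3.3 (TMM, quasi-likelihood, condition only, two-sided) on mRNAs whose counts summed to 16 or more. SE is |log2FC| divided by the square root of F. Calls needed an adjusted p under 0.05 and a |log2FC| over 1. Alternatives used DESeq2 1.42.0, limma 3.58.1 and edgeR's exact test. Single relations were tested by exact permutation (40320 pairings). Fits and permutation tests were first tested on simulated data. Nothing states that libraries of a group came from separate cohorts, so the spread is between these mice only.

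Members and gene lists were chosen with earlier results of these data known. All 10 members were named, with the called genes of each other list or its 2 most abundant, and the 5 mRNAs most correlated with Ngp. The exception is 1 gene, which is not reported here.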

Additional observations from a re-analysis of the deposited data

Results flagged for a closer look

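Among 20 groups of 8 values (10 members in 2 groups), 2 held a library far from the others in FPKM by Dixon's test, and chance gives about 1 in 20. Ltf was listed at 0 in PBS 4, where the other 7 PBS libraries had 0.252 to 0.469 FPKM. Without PBS 4 the log2FC of Ltf was 1.68, against 1.87 with it. Ctsg had 0.0307 FPKM in PBS 5, from 1 count, where the other 7 PBS libraries had 0. With 7 values at 0 any count would be flagged, so the chance rate above does not hold for Ctsg. Without PBS 5 the fitted log2FC of Ctsg was 4.91.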

How the results depend on the processing

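The number of members called was 3, and 2 to 4 in 27 of the 29 other settings. It was 1 (Ngp) with limma on log2(FPKM + 1) and 0 within the 10 libraries outside the possible batch, against 3 within its 6 libraries. Leaving out single libraries gave 3 to 4. Ngp was called in 29, Ltf in 28 and Ctsg in 25 of the settings that gave them an adjusted p. The log2FC of Prtn3 turned to 0.0226 with limma on log2(FPKM + 0.1) and to 0.0688 within EAE 6, 7, 8 and PBS 5, 7, 8, and ran from −0.284 (without PBS 4) to 0.0229 (without PBS 2) with single libraries left out. That of Mmp8 turned to −0.0091 with a term for the possible batch and to −0.992 within the other 10 libraries. It ran from −0.0439 (without EAE 6) to 0.438 (without PBS 2) with single libraries left out, below 0 also without EAE 7 or PBS 4. The causes were not tested. Calls in the other lists (2), neighbours that differed in level (4, or 6 on a log scale) and relations with Ngp (1) stayed within 1.5 times. With the replicate number as a block, 3 members were called and the log2FC of Ngp was 1.51. The labels do not say that a number marks a shared litter or day. Same-numbered libraries correlated at −0.20 to 0.46, over 0.1 in 3 of 8 pairs, and not every library correlated best with its own number (5 of 16 did). Depth limits Elane and Ctsg most. The setting without PBS 4 and EAE 4 was added after the data were seen.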
